A study of Mus musculus with 12 samples.

Results

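The 9 transcription factors that mark glutamatergic projection neurons of the cerebral cortex were followed across 12 RNA-seq libraries of cultured mouse cortical neurons. They were taken as the rows of the raw count table with the symbols Tbr1, Bcl11b, Fezf2, Foxp2, Cux1, Cux2, Rorb, Neurod2 and Neurod6, that is 9 of 23893 genes, and all 9 were found. The cultures formed 4 groups of 3 libraries, of WT cells (WT-Veh and WT-Topot) and of Top1 cKO cells (Top1 cKO-Veh and Top1 cKO-Topot). Neurons came from embryos of embryonic days E13.5 to E15.5 (strain C57BL6). On day in vitro (DIV) 3 they were given 1 of a pair of lentiviruses, both driven by the CaMKIIα promoter, of which the control virus encoded the fluorescent protein tdTomato and the other encoded tdTomato together with the recombinase CRE. The labels call the first genotype wild-type and the second Top1 conditional knockout. According to the study's methods, both kinds of culture were Top1 fl/fl, so that the WT cells also carried the floxed alleles and differed in the virus. At DIV 15 the cells received 300 nM topotecan (Topot) or vehicle (Veh), both in 0.003% DMSO, and they were harvested 3 days later. The CaMKIIα promoter limits CRE to neurons that use it, and 85 to 90% of cells were transduced, so glia and a minority of the neurons in Top1 cKO cultures kept the gene.

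Projection neurons are born from the dorsal progenitors of the cortex in a fixed order, deep layers first and upper layers later. Tbr1 specifies layer 6 neurons that project to the thalamus, Fezf2 and its downstream partner Bcl11b (also called Ctip2) specify layer 5 neurons that project below the cortex, and Foxp2 marks layer 6 neurons and, outside the cortex, striatal neurons. Cux1 and Cux2 are homeobox factors of the upper layers and Rorb is a nuclear receptor of layer 4. Neurod2 and Neurod6 are basic helix-loop-helix factors that projection neurons of every layer switch on as they differentiate. Tbr1 is known to repress Fezf2 and Bcl11b in layer 6 neurons. Topotecan traps topoisomerase 1 (TOP1) on DNA, and loss of TOP1 activity is known to slow transcription along long genes. The factors were therefore set in order of layer, and their genomic lengths were placed beside their changes.

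The libraries held 1730164 to 4583777 counts. Top1 itself stood at 117 to 163 CPM (a share of the TMM-adjusted library size) in the 6 WT libraries and at 27.1 to 44.0 CPM in the 6 Top1 cKO libraries. The study describes its RNA-seq replicates as cultures, and neither it nor the labels say whether they came from separate animals, so p-values measure the spread between these cultures. Libraries with the same replicate number varied together. The fit that takes the replicate number as a block is therefore given beside the fit without it where it changes the call of a member, and for gene lists as counts. Markers of excitatory neurons were abundant in WT-Veh cells, with the vesicular glutamate transporter Slc17a7 at 886 to 1117 CPM and the kinase Camk2a at 1112 to 1217 CPM. The cultures were not pure, since the GABA-synthesising enzymes Gad1 and Gad2 reached 218 to 633 and 307 to 621 CPM and the astrocyte filament gene Gfap 364 to 1151 CPM. In such bulk samples, fewer cells of a type and less RNA per cell cannot be told apart.

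The sequences upstream of 3 of the members are shown first. They belong to Tbr1, the member that rose under topotecan, and to Fezf2, a deep-layer factor that did not rise with Tbr1. The third belongs to Neurod2, a factor for all layers whose changes below passed no test. Each is the 250 bases before the RefSeq start site, 5′ to 3′ on the gene's strand, from the RefSeq promoter table for GRCm38. Each matched 1 place of the NCBIM37 (mm9) assembly, which gave the coordinates chr2:61642260-61642509 on the plus strand for Tbr1, chr11:98190960-98191209 on the minus strand for Neurod2 and chr14:13178380-13178629 on the minus strand for Fezf2. The Tbr1 stretch lies inside the annotated span of the gene, since GENCODE vM1 holds a longer transcript. Capitals mark the letters CANNTG, the E-box that basic helix-loop-helix factors such as Neurod2 and Neurod6 bind.
Tbr1: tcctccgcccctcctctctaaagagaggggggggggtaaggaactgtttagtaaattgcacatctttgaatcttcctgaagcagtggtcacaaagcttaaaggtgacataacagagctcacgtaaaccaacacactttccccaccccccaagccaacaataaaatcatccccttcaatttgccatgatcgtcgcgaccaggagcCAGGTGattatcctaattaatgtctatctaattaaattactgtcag
Neurod2: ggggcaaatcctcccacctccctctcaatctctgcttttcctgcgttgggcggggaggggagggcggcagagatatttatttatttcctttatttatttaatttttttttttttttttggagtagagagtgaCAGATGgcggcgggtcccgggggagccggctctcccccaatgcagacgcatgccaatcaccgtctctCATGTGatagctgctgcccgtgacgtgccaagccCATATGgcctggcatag
Fezf2: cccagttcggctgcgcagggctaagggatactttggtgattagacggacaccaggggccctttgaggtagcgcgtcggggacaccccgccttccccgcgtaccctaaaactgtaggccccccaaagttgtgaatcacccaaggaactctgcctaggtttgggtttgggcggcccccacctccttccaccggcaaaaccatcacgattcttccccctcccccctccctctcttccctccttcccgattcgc
The Tbr1 stretch held 1 match to CANNTG, the Neurod2 stretch 3 and the Fezf2 stretch 0, searched on both strands. Among the Neurod2 matches, 1 was CAGATG, which is 1 form of that motif. The general motif occurred in 66.2% of the 32851 promoters of that length and the specific form in 14.4%. Of the other members, Neurod6 held 2 matches to CANNTG, Bcl11b and Cux1 held 0, and the pair of start sites listed for Cux2 (2 and 1 matches) and for Rorb (2 and 0 matches) differed. A match is a description of the letters only.

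Per kb of exon, the members spanned a wide range in WT-Veh cells. Exon lengths were those of all GENCODE vM1 transcripts of a gene, while the counts were summed over RefSeq exons. The order between genes may therefore depend in part on the annotation. Levels in CPM per kb of exon were 103 ± 20.5 (SD, n = 3) for Neurod6, 29.6 ± 4.51 for Neurod2, 21.2 ± 9.26 for Fezf2, 13.9 ± 0.700 for Bcl11b and 10.8 ± 1.41 for Tbr1. The upper-layer factors stood lower on the same scale, with Cux1 at 4.72 ± 1.27, Rorb at 3.10 ± 0.715 and Cux2 at 3.05 ± 0.270, and Foxp2 was last at 0.447 ± 0.132. In this order, the gaps between Neurod2 and Fezf2, between Fezf2 and Bcl11b and between Rorb and Cux2 were smaller than the larger of both SDs. Tbr1 was the fifth in WT-Veh cells and the third in WT-Topot cells, at 23.4 ± 1.54, above Fezf2 at 17.0 ± 4.03 and Bcl11b at 14.0 ± 0.486. In Top1 cKO-Veh cells Bcl11b at 15.8 ± 1.71 and Tbr1 at 15.7 ± 3.10 could not be separated, and Fezf2 followed at 11.2 ± 1.65. Neurod6 and Neurod2 led in this order, and Foxp2 last, in all 4 groups.

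The first comparison asked what topotecan did in cells with Top1. Tbr1 (chr2:61640987-61652171) rose about 2.18-fold, and the other deep-layer factors, the upper-layer factors and the Neurod genes did not pass the test. Tbr1 counted 65.0, 50.4 and 62.2 CPM in WT-Veh replicates 1 to 3 and 122, 125 and 138 CPM in WT-Topot replicates 1 to 3. Every WT-Topot library lay above every WT-Veh library, and the group means were 59.2 ± 7.73 and 128 ± 8.44 CPM (SD, n = 3). The log2 fold change was 1.12 (SE 0.191, 95% confidence interval 0.72 to 1.52), with an adjusted p of 0.000825 by the quasi-likelihood test of edgeR, adjusted over all genes by the Benjamini-Hochberg method. Over 13 alternative settings the log2 fold change stayed between 1.01 and 1.20 and the adjusted p between 8.59e-10 and 0.00467. So 1 of the 9 members was called at a false discovery rate (FDR) of 0.01, where 2.72% of all 23893 genes were called. All genes, here and below, include 5182 with no count in any library, which could not be called.

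**Figure D1:**
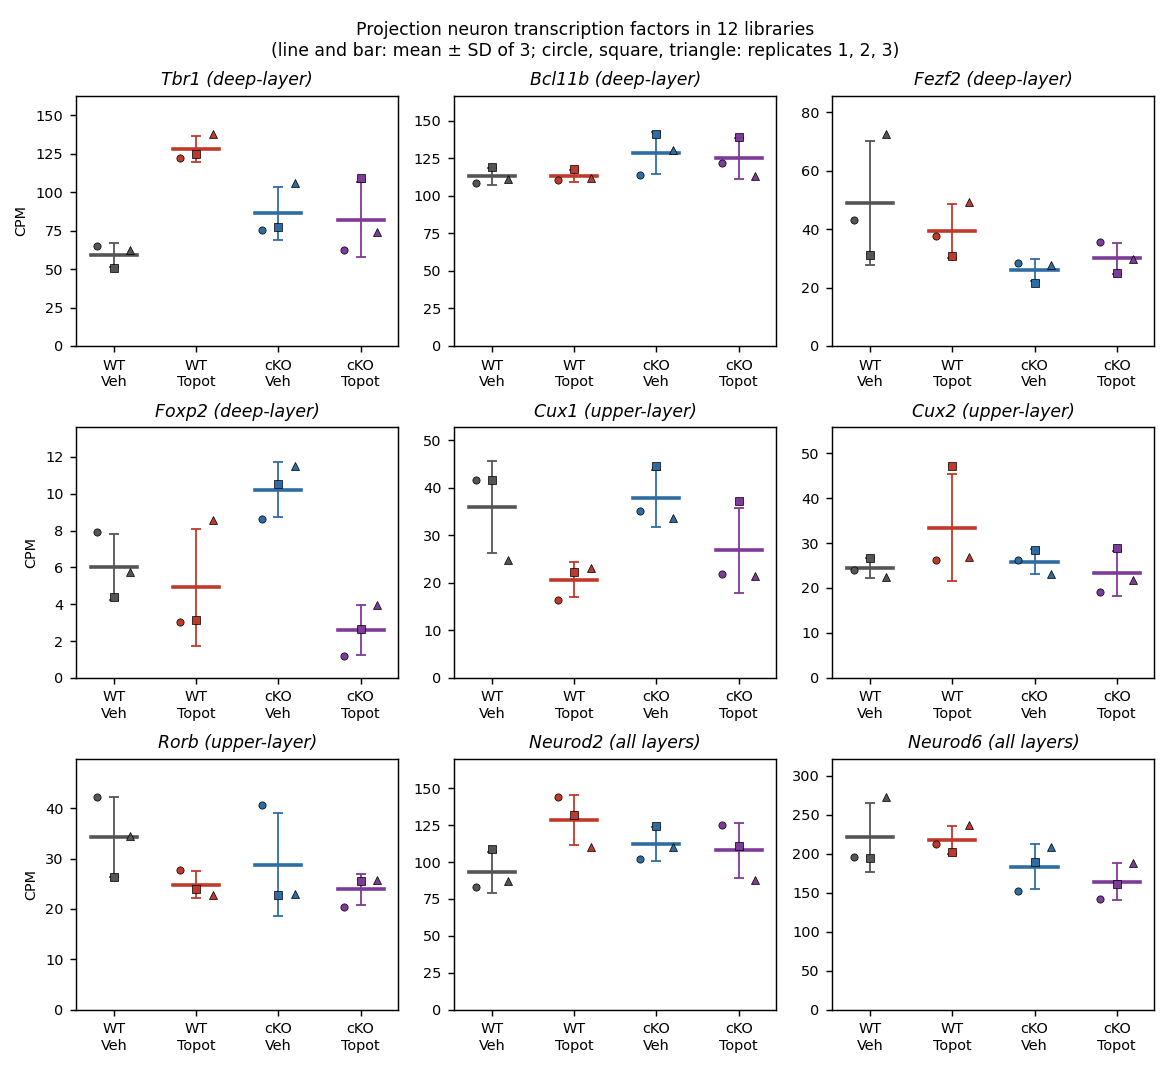
CPM of the 9 factors in each of the 12 libraries, by group (horizontal line and bar, mean ± SD of 3; the marker shape gives the replicate number); each vertical axis starts at 0. Tbr1 in the WT-Topot libraries sits at 122 to 138 CPM, above the other 9 libraries, whose highest is at 109 CPM.

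The other deep-layer factors behaved unlike Tbr1 in these libraries. Bcl11b (chr12:109148613-109241812) stood at 108, 119 and 111 CPM in WT-Veh and at 111, 118 and 112 CPM in WT-Topot cells. The groups overlapped, and the log2 fold change of 0.01 had a 95% confidence interval from -0.36 to 0.38, which leaves out a change as large as that of Tbr1. Fezf2 (chr14:13174406-13178379) was at 43.0, 31.1 and 72.6 CPM in WT-Veh and at 37.5, 30.9 and 49.2 CPM in WT-Topot cells. Its groups overlapped as well, with a log2 fold change of -0.30 (95% confidence interval -0.88 to 0.28) that became 0.08 without WT-Veh replicate 3, the library with the highest Fezf2. Foxp2 (chr6:14851349-15391977) was low, at 7.90, 4.38 and 5.76 CPM in WT-Veh and 3.02, 3.15 and 8.56 CPM in WT-Topot cells, or 9 to 27 counts a library. At this depth its interval was wide, from -1.36 to 0.66 around a log2 fold change of -0.35.

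Among the upper-layer factors, Cux1 was the one whose libraries did not overlap. Cux1 (chr5:136724005-137043301) was at 41.5, 41.6 and 24.8 CPM in WT-Veh and at 16.4, 22.3 and 23.1 CPM in WT-Topot cells. All 3 treated libraries were lower, although WT-Veh replicate 3 lay close to them. The log2 fold change was -0.81 (SE 0.267) with an adjusted p of 0.108 by edgeR's quasi-likelihood test. With the replicate block it was -0.82 (SE 0.217) with an adjusted p of 0.00371, and the adjusted p ranged from 0.00371 to 0.326 over the alternatives. Rorb (chr19:19005095-19185686) was at 42.1, 26.3 and 34.6 CPM in WT-Veh and at 27.8, 24.0 and 22.7 CPM in WT-Topot cells, with overlapping groups and a log2 fold change of -0.46 (95% confidence interval -0.98 to 0.06). Cux2 (chr5:122308396-122500111), the close relative of Cux1, had a log2 fold change of the opposite sign, 0.46 (95% confidence interval -0.10 to 1.02). It was at 24.0, 26.7 and 22.5 CPM in WT-Veh and at 26.1, 47.2 and 27.0 CPM in WT-Topot cells, so that WT-Topot replicate 2 stood apart from the rest. The library kit named in the labels does not mark strand. Of the annotated exon length of Cux1, 5.16% overlaps a noncoding gene on the other strand (Gm16599), while 5.17% of that of Cux2 overlaps an annotated pseudogene. Reads of those stretches may be shared.

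Neurod2 (chr11:98186729-98190962) was at 82.8, 109 and 87.0 CPM in WT-Veh and at 144, 132 and 110.1 CPM in WT-Topot cells. The groups did not overlap, but by a gap of about 1 CPM between WT-Veh replicate 2 and WT-Topot replicate 3. The log2 fold change of 0.47 (SE 0.193) did not pass the test (edgeR adjusted p = 0.249, and 0.0122 with the replicate block). Neurod6 (chr6:55627812-55631257), the member with the most RNA, was at 197, 195 and 272 CPM in WT-Veh and at 212, 202 and 237 CPM in WT-Topot cells, with a log2 fold change of -0.02 (95% confidence interval -0.41 to 0.37). In all, the libraries of the groups were apart for 3 of the 9 members (Tbr1 and Neurod2 higher, Cux1 lower), against 26.0% of the genes that averaged 1 CPM or more. With the replicate block 2 of the 9 members were called, Tbr1 and Cux1, against 8.25% of all genes.

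**Figure D2:**
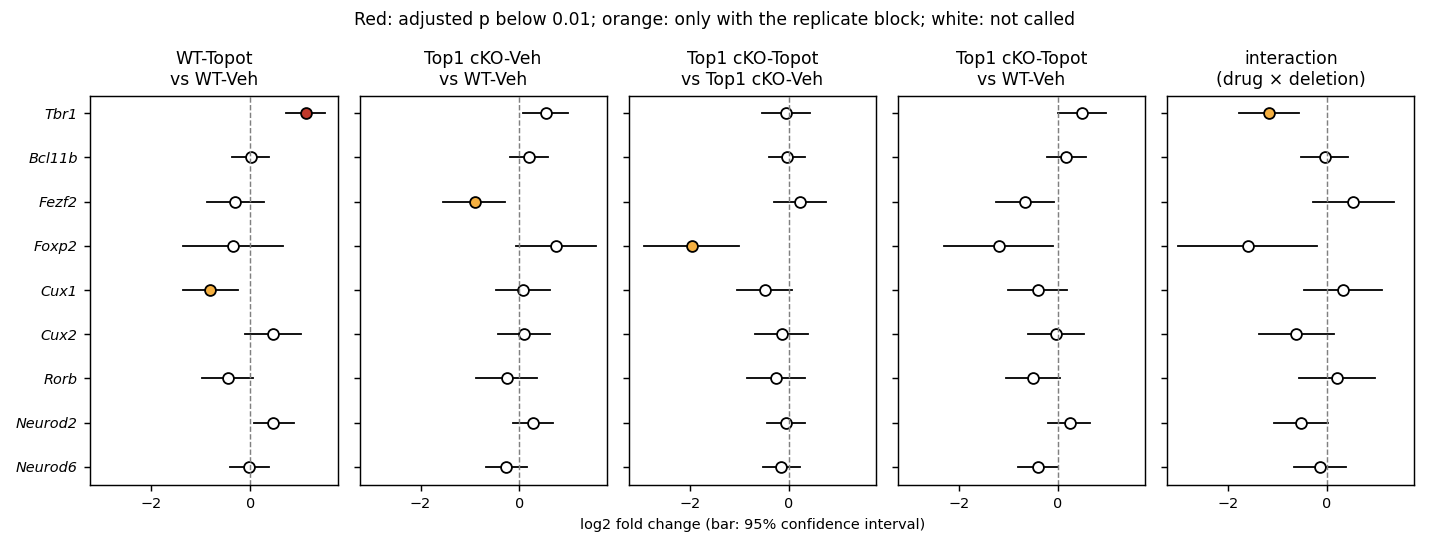
Log2 fold changes of the 9 factors (point) with 95% confidence intervals (bar) from the fits without the replicate block, in the 4 comparisons of groups and for the interaction; red marks an adjusted p below 0.01, orange a call made only with the block. Tbr1 in WT-Topot against WT-Veh, at 1.12, is the single red point.

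Astrocyte RNA moved in the same cultures, while the sums of interneuron markers overlapped between WT-Veh and WT-Topot. The sum of 11 astrocyte markers was 2417 to 4987 CPM in WT-Veh and 1153 to 1966 CPM in WT-Topot cells. Of these 11, Gfap, Slc1a3 and Slc1a2 fell (log2 fold changes of -2.54, -1.52 and -1.39), and 0 rose, while 6 were lower with the replicate block. The astrocyte water channel gene Aqp4 was at 62.2 to 361 CPM in WT-Veh and at 23.1 to 89.1 CPM in WT-Topot cells. Interneuron markers summed to 840.3 to 1820.2 CPM in WT-Veh and 630.3 to 1125 CPM in WT-Topot cells, with 0 of 14 called by edgeR (8 with the replicate block, 5 lower and 3 higher). Gad1 and Gad2 were at 143 to 260.4 and 173 to 243 CPM in WT-Topot cells. The 9 general neuron markers summed to 6239 to 8365 CPM in WT-Veh and to 6265 to 6941 CPM in WT-Topot cells, and of these Rbfox3 fell (log2 fold change -0.96). With the block 4 neuron markers were lower and 1 higher. Of all genes, 2.72% were called in this comparison without the block and 8.25% with it. Slc17a7 was at 1197 to 1499.6 CPM and Camk2a at 1101 to 1301 CPM in WT-Topot cells. The part of these shifts in the values of the members was not tested.

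The second comparison asked whether deletion of Top1 without drug changed the same factors. None of the 9 members was called by edgeR's quasi-likelihood test at an FDR of 0.01, where 0.172% of all genes were called, nor by the edgeR exact test or DESeq2. At an unadjusted p under 0.05, 1 was higher (Tbr1) and 1 lower (Fezf2). The libraries of the groups were apart for 3 members, Tbr1 and Foxp2 higher and Fezf2 lower, against 19.9% of genes.

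Fezf2 was at 28.5, 21.5 and 27.6 CPM in Top1 cKO-Veh replicates 1 to 3, all below the WT-Veh range of 31.1 to 72.6 CPM. The log2 fold change was -0.91 (SE 0.295, 95% confidence interval -1.54 to -0.29), with an edgeR adjusted p of 0.237. It was -0.53 without WT-Veh replicate 3, the library with the highest Fezf2. With the replicate block, Fezf2 was called lower (log2 fold change -0.83, adjusted p = 0.000504, and 0.000504 to 0.68 over the alternatives), the only member called in that fit, against 5.56% of all genes. Tbr1 was at 75.5, 77.2 and 106 CPM, all above the WT-Veh libraries. Its log2 fold change of 0.54 (95% confidence interval 0.08 to 0.99) had an edgeR adjusted p of 0.418, and of 0.0124 with the block. Foxp2 was at 8.60, 10.5 and 11.5 CPM, or 22 to 46 counts, each above the WT-Veh libraries, with a log2 fold change of 0.73 (95% confidence interval -0.07 to 1.54). The remaining 6 members had log2 fold changes between -0.27 (Neurod6) and 0.27 (Neurod2), and their libraries overlapped. Cux1 was at 35.2, 44.7 and 33.6 CPM, Cux2 at 26.2, 28.4 and 23.0 CPM and Rorb at 40.7, 22.7 and 23.0 CPM. Astrocyte markers summed to 2729 to 6306 CPM in Top1 cKO-Veh cells, which overlapped WT-Veh.

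Topotecan was then compared with vehicle within Top1 cKO cells. None of the 9 members was called (0.00837% of all genes were, 2 genes), and DESeq2 and the exact test called none. At an unadjusted p under 0.05, 1 member was lower, Foxp2. Foxp2 was at 1.19, 2.66 and 3.93 CPM in Top1 cKO-Topot replicates 1 to 3, which are 3, 8 and 9 counts, against 22, 46 and 23 counts in Top1 cKO-Veh cells. It was the one member whose libraries were apart here, against 11.7% of genes. The log2 fold change was -1.96 (SE 0.453) with an edgeR adjusted p of 0.169. With the replicate block it was -1.99 with an adjusted p of 3.41e-05 (3.41e-05 to 0.513 over the alternatives), the only call among the members, against 2.59% of all genes. These counts lie near the 3 counts that 0.687 to 1.73 CPM represent in these libraries. Tbr1, which rose in WT cells, was at 62.5, 109 and 73.9 CPM in Top1 cKO-Topot cells and overlapped Top1 cKO-Veh, with a log2 fold change of -0.05 (95% confidence interval -0.53 to 0.43). Cux1 was at 21.9, 37.2 and 21.4 CPM, with a log2 fold change of -0.48 (95% confidence interval -1.04 to 0.07). The other 6 members lay between -0.25 (Rorb) and 0.23 (Fezf2) on the log2 scale. Astrocyte markers were read in the same comparison. They summed to 1724 to 3220.4 CPM in Top1 cKO-Topot cells against 2729 to 6306 CPM in Top1 cKO-Veh cells, and these ranges overlapped. Of the 11, 0 were called by edgeR without the block and 6 were lower with it, among them Gfap (-1.43, adjusted p = 8.39e-42 with the block, and 0.495 without it) and Slc1a3 (-1.17, adjusted p = 5.79e-30, and 0.443 without it). Their part in the Foxp2 value was not tested.

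Whether the effect of topotecan differed between the genotypes was tested by the interaction term over all 12 libraries, coded as the effect in Top1 cKO cells minus that in WT cells. None of the 9 members passed without the block, where 0.435% of all genes did, while 2 had an unadjusted p under 0.05 (Tbr1 and Foxp2, both negative). For Tbr1 the term was -1.18 on the log2 scale (SE 0.295, 95% confidence interval -1.79 to -0.56), with an edgeR adjusted p of 0.0554. With the replicate block it was -1.15 (adjusted p = 0.000295), and Tbr1 was the one member called, against 3.97% of all genes. DESeq2 also called it (adjusted p = 0.00836), and the adjusted p ranged from 0.000295 to 0.171 over the alternatives. The term for Foxp2 was -1.61 (95% confidence interval -3.01 to -0.20) with an edgeR adjusted p of 0.464. For Neurod2 it was -0.53 (95% confidence interval -1.07 to 0.01), for Cux2 -0.62 (-1.38 to 0.15) and for Fezf2 0.53 (-0.28 to 1.35), and the other 4 members lay between -0.14 (Neurod6) and 0.32 (Cux1).

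Cells with both deletion and topotecan were also set against WT-Veh, which shares its 3 libraries with the first pair of comparisons. None of the 9 members was called, without the block (1.68% of all genes) or with it (7.37%), by edgeR or DESeq2. At an unadjusted p under 0.05, Tbr1 was higher and Fezf2, Foxp2 and Neurod6 were lower. The libraries of the groups were apart for 3 members, all lower (Foxp2, Rorb and Neurod6), against 26.5% of genes. Neurod6 was at 142, 162 and 189 CPM in Top1 cKO-Topot cells against a lowest value of 195 CPM in WT-Veh cells (log2 fold change -0.41, edgeR adjusted p = 0.367, and 0.0349 with the block). Rorb was at 20.3, 25.6 and 25.8 CPM, the highest just below the lowest WT-Veh library at 26.3 CPM (log2 fold change -0.50). For Foxp2 the log2 fold change was -1.20 (95% confidence interval -2.31 to -0.10). Tbr1 and Fezf2 overlapped WT-Veh, with log2 fold changes of 0.49 and -0.67.

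To weigh upper against deep layers, the mean log2(CPM + 1) of Cux1, Cux2 and Rorb minus that of Tbr1, Bcl11b, Fezf2 and Foxp2 was taken in each library. This score is a description and carries no test. It was -0.20, -0.01 and -0.64 in WT-Veh replicates 1 to 3 and -0.68, -0.30 and -1.06 in the WT-Topot libraries. In the same order it was -0.20, -0.38 and -0.80 for Top1 cKO-Veh and -0.39, -0.16 and -0.49 for Top1 cKO-Topot. The 4 groups overlapped. WT-Topot lay lowest, at a difference of -0.40 from WT-Veh on the log2 scale, where the larger SD of both groups was 0.376. Between libraries of the same replicate number, the WT-Topot score was lower in 3 of 3 pairs, with differences of -0.48 to -0.29. The difference of -0.40 shrank when some single libraries or Cux1 were left out. It was -0.21 without WT-Topot replicate 3, -0.26 without WT-Veh replicate 2 and -0.15 without Cux1, all smaller than that SD. With 1 library left out it ran from -0.58 to -0.21. The score was not taken without Tbr1, the called member, whose rise within the deep-layer mean also lowers it. The lower WT-Topot score and its same-numbered pairs are therefore no separate evidence beside the Tbr1 call. They do not show a shift between upper and deep layers as such. The difference was -0.18 for Top1 cKO-Veh against WT-Veh and 0.11 for Top1 cKO-Topot against Top1 cKO-Veh, both within 1 SD. In same-numbered pairs the Top1 cKO-Veh score was also lower in 3 of 3, with differences of -0.37 to -0.01. With 1 library left out, the first of these ran from -0.36 to -0.01 and the second from -0.06 to 0.24. Without Rorb and Foxp2 they became 0.13 and -0.36. The upper-layer mean was 4.80 to 5.16 in WT-Veh and 4.58 to 4.93 in WT-Topot cells, and the deep-layer mean 5.01 to 5.44 and 5.23 to 5.71.

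The deep-layer factors did not move as a unit, which a mean over them hides. The ratio of Tbr1 to Fezf2 CPM, chosen after its values were seen and given without a test, was 1.51, 1.62 and 0.857 in WT-Veh replicates 1 to 3. It was 3.25, 4.05 and 2.80 in WT-Topot cells, 2.64, 3.59 and 3.84 in Top1 cKO-Veh cells and 1.76, 4.39 and 2.49 in Top1 cKO-Topot cells. Each of the 9 libraries with topotecan, deletion or both lay above the 3 WT-Veh libraries. In WT-Topot cells the higher ratio came with a mean Tbr1 of 128 against 59.2 CPM and a mean Fezf2 of 39.2 against 48.9 CPM, and in Top1 cKO-Veh cells Fezf2 was lower (25.9 ± 3.80 against 48.9 ± 21.3 CPM) and Tbr1 higher (86.1 ± 17.0 against 59.2 ± 7.73 CPM). The 3 WT-Veh libraries are common to these comparisons.

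**Figure D3:**
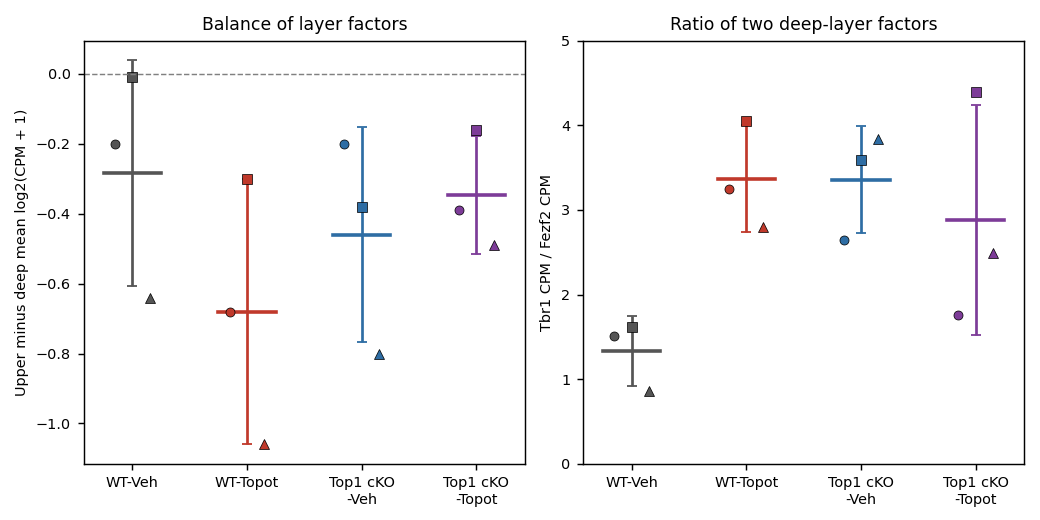
Left, the upper minus deep layer score in each library (mean log2(CPM + 1) of Cux1, Cux2 and Rorb minus that of Tbr1, Bcl11b, Fezf2 and Foxp2); right, the ratio of Tbr1 to Fezf2 CPM; lines and bars are mean ± SD of 3 libraries. The scores of all groups overlap, while the ratio is 0.857 to 1.62 in WT-Veh and 1.76 to 4.39 in the other 9 libraries.

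Genomic length divided the members. Foxp2 (541 kb), Cux1 (319 kb), Cux2 (192 kb) and Rorb (181 kb) exceed 100 kb, whereas Bcl11b (93.2 kb), Tbr1 (11.2 kb), Neurod2 (4.23 kb), Fezf2 (3.97 kb) and Neurod6 (3.45 kb) do not. The upper-layer factors are thus all long, so that layer and length cannot be told apart in the score above. In WT-Topot against WT-Veh, 3 of the 4 long members had negative log2 fold changes (median -0.41, from -0.81 for Cux1 to 0.46 for Cux2). Over all 2015 genes above 100 kb that averaged 1 CPM or more, the median was -0.42 and 76.6% were negative. The 5 shorter members had a median of 0.01, from -0.30 to 1.12, where the 11358 shorter genes had a median of 0.08 and 42.6% negative values. Among those genes, 17.9% of the long and 1.05% of the shorter ones were called lower, and 0.496% of the long and 1.31% of the shorter ones were called higher, the class of Tbr1. Cux2 was the long member whose value ran against the median of its class. It was above 0 under each alternative run (0.13 to 0.61), the lowest without WT-Topot replicate 2.

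In Top1 cKO-Topot against Top1 cKO-Veh, all 4 long members had negative log2 fold changes (median -0.37), where all long genes had a median of -0.13 with 64.3% negative. The longest member, Foxp2, had the lowest value at -1.96. After deletion alone, 1 of the 4 long members was negative (median 0.08, against -0.05 for all long genes).

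**Figure D4:**
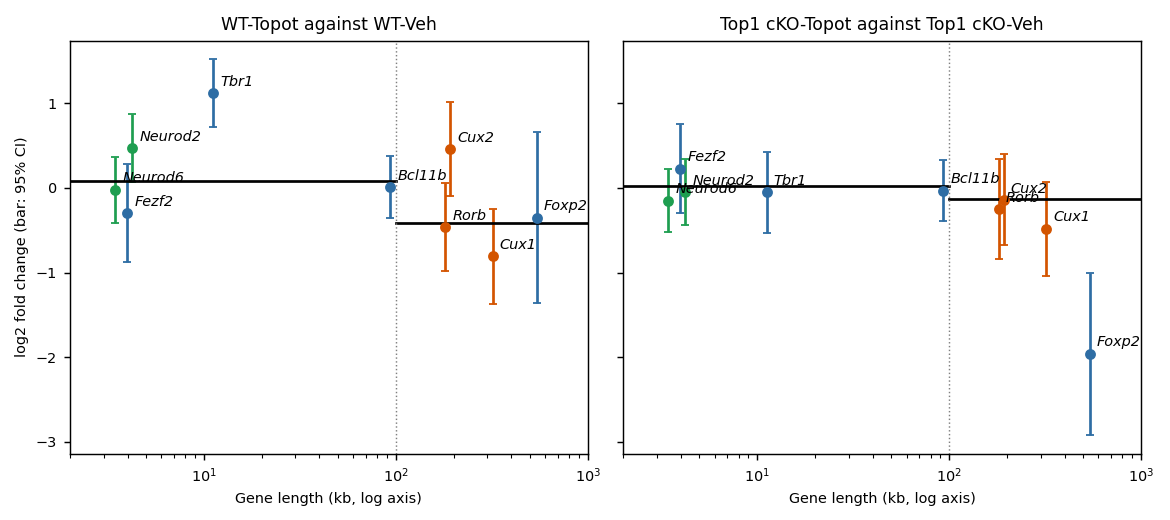
Log2 fold change of each factor (bar, 95% confidence interval) against genomic length in kb on a log axis, for topotecan in WT cells (left) and in Top1 cKO cells (right); blue, deep-layer, orange, upper-layer, green, all layers; black lines are the medians of all genes of 100 kb or less and over 100 kb. Tbr1, 11.2 kb long, stands above the short-gene line on the left and on it to within its interval on the right.

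Other genes of the same layers and lineage gave a mixed picture beside the members. Of 14 other upper-layer genes, 1 fell in WT-Topot cells and 2 rose, with a median log2 fold change of 0.08 against 0.03 for all genes. The netrin receptor gene Unc5d fell (-2.11, edgeR adjusted p = 2.91e-05), and the calcium-binding protein gene Calb1 (1.36) and Mdga1 (2.40), a cell surface protein, rose. Of 16 other deep-layer genes, 4 fell and 0 rose, with a median of -0.54. They were Ldb2 (-2.07), a cofactor of LIM domain factors, Tshz2 (-1.66), Nr4a2 (-1.62) and Sox5 (-1.20), transcription factors. Tbr1 thus rose while these 4 fell. Genomic lengths were not set beside the changes of the list genes. Layer and length therefore cannot be told apart in these lists. In the same list Crym (1.62, edgeR adjusted p = 0.0102) and Ntsr1 (1.14, edgeR adjusted p = 0.0101) were higher but narrowly missed the FDR. With the replicate block both were called higher, as was Etv1 (0.84). Cyp26b1 (-0.98) and Foxp1 (-0.64) were called lower with the block only. Of 19 other glutamatergic lineage genes, Neurod1, a relative of Neurod2 and Neurod6, rose (1.67, edgeR adjusted p = 0.000136) and the neuronal zinc finger gene Myt1l fell (-2.14, edgeR adjusted p = 5.05e-06). With the replicate block, 3 were lower and 4 higher in the upper-layer list. The counts were 6 and 3 in the deep-layer list, and 3 and 4 in the lineage list. Of all genes, 2.72% were called in this comparison without the block and 8.25% with it.

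In Top1 cKO-Veh cells, as among the members, no gene of these 3 lists was called by edgeR without the block. With it, 3 upper-layer genes were lower and 2 higher, and 2 deep-layer genes were lower and 3 higher. Of all genes, 0.172% were called without the block and 5.56% with it. Topotecan in Top1 cKO cells gave no call in these lists without the block either. With it, 1 upper-layer gene was lower and 2 higher, and 1 gene was lower and 1 higher in each of the other 2 lists. The shares of all genes called there were 0.00837% without the block and 2.59% with it. Against WT-Veh, Top1 cKO-Topot cells had lower Mef2c (-0.99), an activity-dependent transcription factor, Unc5d (-0.98), Tshz2 (-1.54) and Ldb2 (-1.45), and higher Slc17a6 (1.17), the glutamate transporter of early and subcortical neurons. With the block, 3 upper-layer genes were lower and 3 higher in that comparison. The counts were 4 and 3 in the deep-layer list and 1 and 1 in the lineage list. Of all genes, 1.68% were called there without the block and 7.37% with it. The interaction was called without the block for Nr4a2 (2.30) and Myt1l (1.75), both positive. With the block, in which the negative Tbr1 term was called, the lists held terms of both signs: 2 negative and 2 positive among upper-layer genes, 2 and 4 among deep-layer genes and 2 and 1 among lineage genes. Neurod1, which rose with Tbr1 in WT-Topot cells, had a negative term (-1.85, edgeR adjusted p = 5.93e-06 with the block and 0.0239 without it). The interaction was called for 0.435% of all genes without the block and for 3.97% with it.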

How the data were processed

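RNA-seq reads (polyA RNA) were filtered with TagDust and aligned to mm9 with TopHat, and reads on rRNA genes were removed. The authors deposited unnormalised counts for 23893 gene symbols, summed over RefSeq exons. The counting program and software versions are not given in the sources used here. Groups and replicate numbers came from the labels. Counts were scaled by TMM and fitted with edgeR 4.0.16 (quasi-likelihood test), each comparison on its 6 libraries and the interaction on 12, with no gene filter and Benjamini-Hochberg adjustment over all genes (FDR 0.01). The fit was checked on counts drawn from the libraries' means. Deviations from group means correlated at 0.261 to 0.485 between the 18 pairs of libraries with the same replicate number (13720 genes). From these values the numbers were taken to pair the libraries. Between the other 36 pairs they correlated at -0.384 to -0.0494. As deviations cancel within a group, these negative values follow from the positive ones and are no separate evidence. Replicates differed by more than sampling noise (dispersion index 4.94 to 8.06). Lengths came from GENCODE vM1, which matched 21013 symbols directly and 1067 through synonyms. Promoter sequences are from RefSeq and covered 8 of the 9 members. Alternatives included RLE factors, library totals, filterByExpr, the exact test, DESeq2 1.42.0, a replicate block, a fit of all 4 groups, an FDR of 0.1 and leaving out each library. The members and gene lists were chosen with earlier results of these data known. All members are named. List genes were named if they passed the FDR (at most 6 for each list and comparison, highest mean CPM first), with defining markers of other cell types. Crym, Ntsr1, Etv1, Cyp26b1 and Foxp1 are also named. They are the deep-layer list genes that passed the FDR only with the replicate block in WT-Topot against WT-Veh.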

Additional observations from a re-analysis of the deposited data

Results flagged for a closer look

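The effect of topotecan on Tbr1 differed between the genotypes in the fit with the replicate block, where the interaction term was -1.15 on the log2 scale (edgeR adjusted p = 0.000295). Without the block the same term missed the threshold (-1.18, edgeR adjusted p = 0.0554). Tbr1 was higher in 3 of 3 WT-Topot libraries than in any WT-Veh library, while the Top1 cKO-Topot libraries (62.5 to 109 CPM) and the Top1 cKO-Veh libraries (75.5 to 106 CPM) overlapped.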

How the results depend on the processing

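Tbr1 in WT-Topot cells was called under each of the 13 alternatives. The replicate block changed 4 counts of called members: 2 in WT-Topot against WT-Veh (Cux1 at -0.82 added), 1 after deletion (Fezf2 at -0.83), 1 for topotecan in Top1 cKO cells (Foxp2 at -1.99) and 1 for the interaction (Tbr1 at -1.15). It changed no other call of a member. The interaction count was also 1 by DESeq2 and at an FDR of 0.1. The score of Top1 cKO-Topot against Top1 cKO-Veh moved to -0.36 without Rorb and Foxp2. The cause of these differences was not tested. Of 621 log2 fold changes under alternatives, 24 had the other sign, all of them of values that were not called. Leaving out 1 library moved the Fezf2 value after deletion between -1.15 and -0.53. For WT-Topot against WT-Veh the values of the other sign were Bcl11b at -0.01 with RLE factors, filterByExpr and DESeq2, and Neurod6 at 0.06 with library totals. The others came with 1 library left out. The leave-one-out values ran, for WT-Topot against WT-Veh, from -0.03 to 0.05 for Bcl11b, -0.55 to 0.08 for Fezf2 and -0.11 to 0.16 for Neurod6. They ran from -0.13 to 0.18 for Cux1 after deletion, from -0.25 to 0.07 for Cux2 in Top1 cKO-Topot against WT-Veh and from -0.14 to 0.01 for the Bcl11b interaction. For Top1 cKO-Topot against Top1 cKO-Veh they ran from -0.32 to 0.12 for Tbr1, -0.11 to 0.04 for Bcl11b, -0.42 to 0.08 for Rorb and -0.18 to 0.08 for Neurod2. With 3 libraries a group and 3 to 46 counts of Foxp2 a library, changes of Foxp2 below the width of its intervals were not detectable at this depth.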

Other observations

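Markers of other cell types were read in the same fits. In WT-Topot against WT-Veh, Reln, the signalling protein of Cajal-Retzius cells and some interneurons, fell (log2 fold change -2.67, 16.1 to 26.3 against 82.8 to 225 CPM) and Calb2 rose (1.98), out of 5 Cajal-Retzius markers. Penk, an opioid peptide gene, was the 1 of 12 striatal markers that fell (-1.31; with the replicate block 3 were lower and 1 higher), while Drd1a (19.5 to 39.4 against 13.1 to 33.4 CPM) and Drd2 (1.71 to 3.43 against 1.73 to 2.93 CPM) overlapped. Nes, an intermediate filament gene of progenitors, rose (1.22), the only call among 9 progenitor and proliferation markers (2 were higher with the block), and Mki67, which marks dividing cells, was at 0 to 3.07 CPM in all libraries. None of 9 oligodendrocyte, 8 microglia and 9 endothelial and mural markers was called by edgeR. With the replicate block 1 oligodendrocyte marker was lower and 1 higher. Of all genes, 2.72% were called in this comparison without the block and 8.25% with it. Against WT-Veh, Top1 cKO-Topot cells also had lower Reln (-1.93) and higher Nes (1.77).

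Among genes that averaged 10 CPM or more, those whose log2(CPM + 1) was most like a member's over the 12 libraries were Optn (Pearson r = 0.958), Zhx1 (0.951) and Oprl1 (0.945) for Tbr1. They were Ywhag (0.915), Flrt1 (0.910) and Gpr123 (0.903) for Bcl11b, Pcnp (0.984), Klf8 (0.909) and Maf1 (0.874) for Fezf2, and Ints8 (0.896), Zc3h12b (0.842) and Prkag2 (0.833) for Foxp2. For the upper-layer factors they were Trappc9 (0.916), Diap2 (0.902) and Shisa6 (0.892) for Cux1, Elavl3 (0.908), C230091D08Rik (0.905) and Mapkbp1 (0.889) for Cux2, and Npat (0.903), Lhfp (0.888) and Ddx23 (0.865) for Rorb. Dbnl (0.896), 2310044G17Rik (0.893) and Gabbr1 (0.885) were most like Neurod2, and Yme1l1 (0.961), Snap29 (0.952) and Basp1 (0.944) most like Neurod6. No member was in another member's 3. Between members, Fezf2 and Bcl11b had the lowest r (-0.71) and Fezf2 and Neurod6 the highest (0.65). These values describe 12 libraries that share groups, replicate numbers and depth, and were picked as the highest of 9506 genes.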
